A study of Mus musculus with 6 samples.

Results

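The miR-29 family was read here by the mouse-named assays for the guide strands miR-29a, miR-29b and miR-29c, found by name in both the threshold cycle (Ct) and the normalized (dCt) tables. These are 3 of the 350 miRNA assays with a Ct. The named assays are mmu-miR-29a, mmu-miR-29b and mmu-miR-29c. The 6 samples hold CD8+ pMel-1 T cells of the mouse, whose transgenic receptor recognises gp100, a melanoma antigen, and miRNA was read by RT-PCR with SYBR Green detection. In the DC-primed group (n = 3), the T cells had been stimulated in culture for 3 days by bone marrow-derived dendritic cells matured with LPS. In the B cell-primed control group (n = 3), splenic B cells loaded with the peptide hgp100(25-33) were the stimulating cells for the same time. Each of 3 rounds supplied 1 sample of each group. The pMel-1 transgene is common to both groups, and the maturation stimulus and the peptide loading differ between the groups together with the priming cell. The sources used here do not give mouse age or say whether priming cells were removed before RNA extraction.

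The miR-29 guide strands come from the 3′ arm of their hairpins, and a miRNA finds its target mRNAs mainly through bases 2 to 8, the seed. In T cells the family is known for restraining interferon-gamma production, through the transcription factors T-bet and Eomes and the interferon-gamma mRNA itself. In other tissues it is known for lowering collagens and DNA methyltransferases. Activation of T cells is known to lower it.

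The mature strands are shown because the 3 assays read nearly the same molecule. Sequences are from RefSeq (build GRCm38.p6), 5′ to 3′, with the seed in capitals.
miR-29a: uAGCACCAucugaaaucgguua
miR-29c: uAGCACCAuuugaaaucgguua
miR-29b: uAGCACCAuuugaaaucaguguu
All 3 share 1 seed, and among 1679 mature mouse names in that table only these 3 carry it. Counted from the 5′ end, miR-29a differs from miR-29c by C10U alone, over 22 bases. Over the same 22 bases, miR-29b differs from miR-29c by A18G, G21U and U22A, and it is 23 bases long. Each assay used its own forward primer with a universal reverse primer, so signal shared between these molecules is possible and was not tested. The family has 4 hairpins in 2 pairs. Mir29a (chr6:31062660-31062747, minus strand) lies 275 bases from Mir29b-1 (chr6:31063023-31063093, minus strand). Mir29b-2 (chr1:195037040-195037120, plus strand) lies 426 bases from Mir29c (chr1:195037547-195037634, plus strand), and both lie within the annotated gene A330023F24Rik. The 2 miR-29b hairpins give 1 mature sequence, so the miR-29b assay cannot tell the loci apart.

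Passenger strands from the opposite, 5′ arm were measured as well, and differ enough between loci to be told apart by sequence.
miR-29a*: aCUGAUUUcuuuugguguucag
miR-29c*: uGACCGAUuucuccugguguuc
The assay name miR-29b* does not say which of the 2 miR-29b hairpins it reads, and no sequence is given for it.

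The guide strands were well detected, with a Ct below 35 in all 6 samples for 3 of 3. DC-primed sample 3 was late in general: 280 of 350 assays fell below 35 there, against 327 to 341 in the other 5 samples. Levels below are minus dCt, on the log2 scale, where a step of 1 doubles the amount and higher means more. Of the miRNAs listed here as T cell markers, miR-150 had a Ct of 20.65 to 27.14 over the 6 samples and miR-181a one of 24.24 to 33.51. With bulk RNA, fewer cells holding a miRNA and less of it per cell cannot be told apart.

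miR-29a, encoded on chromosome 6, was the highest of the 3 by mean level in both groups. Its level was 5.51, 2.59 and 1.85 in DC-primed samples 1, 2 and 3, and 3.82, 5.31 and 2.19 in B cell-primed samples 1, 2 and 3. The highest sample was DC-primed and the next highest B cell-primed, and the groups overlapped. The means were 3.32 ± 1.94 and 3.78 ± 1.56 (SD, n = 3 each). DC-primed minus B cell-primed was -0.46 ± 1.15 (SE), with a 95% confidence interval of -3.07 to 2.15 and a limma adjusted p of 0.986.

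miR-29c, encoded on chromosome 1, had the widest range of the 3. Its level was 5.56, 1.14 and -0.38 in DC-primed samples 1, 2 and 3, and 3.01, 4.84 and 1.66 in B cell-primed samples 1, 2 and 3. DC-primed sample 1 was the highest of all 6 and DC-primed samples 2 and 3 the lowest, so the B cell-primed samples lay inside the DC-primed range. In raw terms its Ct ran from 20.62 to 30.84 within the DC-primed group. The means were 2.11 ± 3.09 and 3.17 ± 1.60 (SD, n = 3 each), and the difference was -1.07 ± 1.49 (SE), with an interval of -4.47 to 2.33 (limma adjusted p = 0.971). Of the 274 assays tested, 191 had a smaller difference in size.

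miR-29b, made from both loci, had the lowest level of the 3 in each sample. It was 3.29, 1.01 and -0.62 in DC-primed samples 1, 2 and 3, and 0.36, 2.71 and 0.28 in B cell-primed samples 1, 2 and 3. DC-primed samples 1 and 3 were its extremes. The means were 1.23 ± 1.97 and 1.12 ± 1.38 (SD, n = 3 each), and the difference was 0.11 ± 1.12 (SE), with an interval of -2.44 to 2.65 (limma adjusted p = 0.986).

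**Figure D1:**
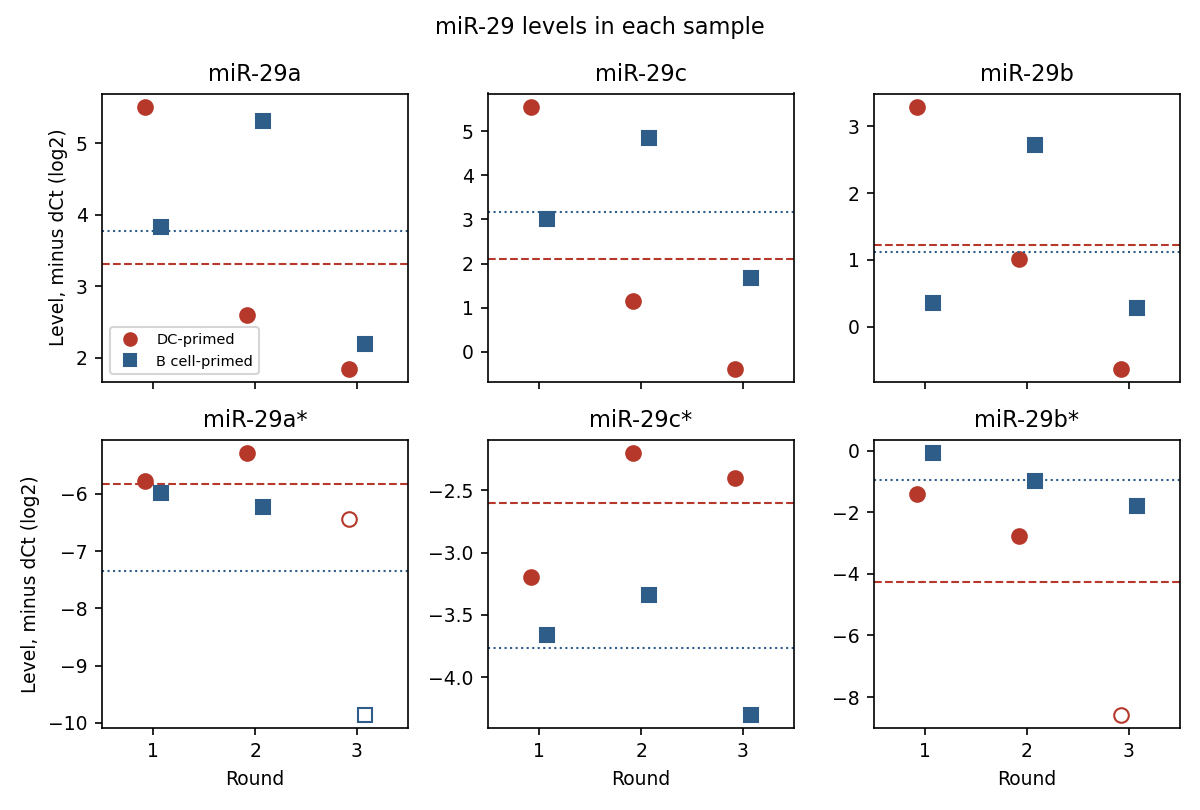
Level of each miR-29 assay (minus dCt, log2 scale, vertical axes with their own ranges) by round, DC-primed as circles and B cell-primed as squares; the dashed line is the DC-primed mean and the dotted line the B cell-primed mean, and open symbols had a Ct of 35 or more. The guide strands in the top row overlap between the groups, and miR-29c* in the bottom row does not.

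No guide strand passed the test. At a threshold of 0.05 for the adjusted p, limma passed 0 of the 274 assays (0%). At an unadjusted p under 0.05 the test passed 24 of 274 assays (8.76%), and 0 of 3 guide strands. Each of the 3 intervals reached beyond 2 units on both sides, so a 4-fold difference in either direction lay within it. The authors' deposited table gives a DC-primed over B cell-primed fold of 0.727 for miR-29a, 0.477 for miR-29c and 1.08 for miR-29b.

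The spread among samples of 1 group was wide for these miRNAs. In the B cell-primed group the SD of miR-29c ranked 15 from the highest among the 274 assays, that of miR-29a 16 and that of miR-29b 26, where the median assay had an SD of 0.63. In the DC-primed group miR-29c ranked 10, miR-29b 58 and miR-29a 61, against a median SD of 1.20.

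Within rounds, on the authors' scaling, the 3 guide strands took the same course. In round 1 the DC-primed sample was higher, by 1.69 for miR-29a, 2.55 for miR-29c and 2.93 for miR-29b on the log2 scale. In round 2 the differences were -2.72, -3.70 and -1.70 in that order, and in round 3 they were -0.34, -2.04 and -0.90. On this scaling, though not on every other, all 3 were thus above the B cell-primed sample in round 1 and below it in rounds 2 and 3, a course taken by 28 of the 274 assays (10.2%). The 3 assays read near-identical sequences, so they are not 3 independent instances. The median over all 274 assays was -0.27, 0.45 and -0.03 in rounds 1, 2 and 3.

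**Figure D2:**
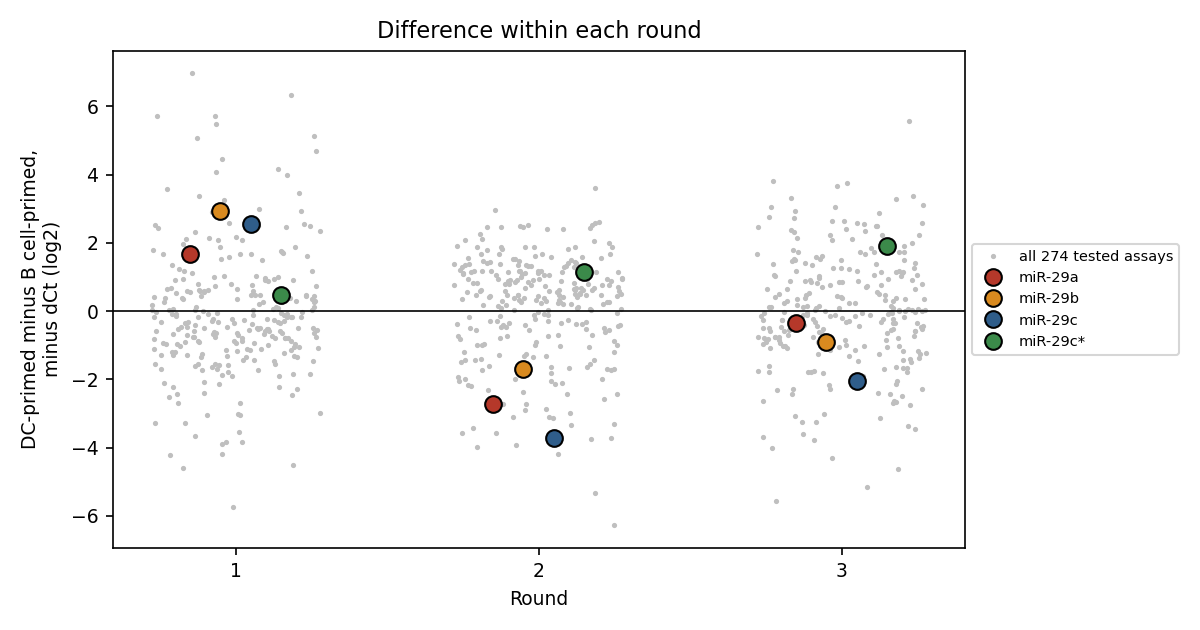
DC-primed minus B cell-primed level (log2 scale, vertical axis) in each round for all 274 tested assays as grey points and for 4 miR-29 assays as coloured points. On the authors' scaling the guide strands lie above 0 in round 1 and below 0 in rounds 2 and 3, which does not hold for all 3 relative to the small RNAs, relative to cel-mir-67 or with median centring, whereas miR-29c* lies above 0 in each round.

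Single samples moved these differences. For miR-29c, without DC-primed sample 1 it was -2.80 (limma adjusted p = 0.198, unadjusted 0.0267), and with both samples of round 1 left out it was -2.87 (adjusted p = 0.404), while over all alternatives run the adjusted p was 0.198 to 1.00. Omitting DC-primed sample 3 gave 0.18 and DC-primed sample 2 gave -0.58, while omitting B cell-primed sample 2 gave -0.23 and B cell-primed sample 3 gave -1.82. For miR-29a, omitting DC-primed sample 1, 2 or 3 gave -1.56, -0.10 or 0.27, and omitting B cell-primed sample 2 or 3 gave 0.31 or -1.25. For miR-29b, omitting DC-primed sample 1, 2 or 3 gave -0.93, 0.21 or 1.03, and omitting B cell-primed sample 1, 2 or 3 gave -0.27, 0.90 or -0.31. For each of the 3 guide strands, leaving out a single sample could thus turn the sign.

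Myeloid and dendritic cell markers were highest in the same DC-primed sample as the guide strands, and so were the B cell and T cell markers. The summed level of 5 markers (miR-223, miR-22, miR-99b, miR-125a-5p and miR-146b) was 7.26, 4.63 and 1.04 on the log2 scale in DC-primed samples 1, 2 and 3, and 0.69 to 1.70 in the B cell-primed samples. For miR-223, the defining myeloid miRNA, the Ct was 20.82, 27.23 and 36.99 in the DC-primed samples and between 32.14 and 32.67 in the B cell-primed ones. Of the 3 markers that could be tested, 3 were higher in DC-primed cells and 0 passed, with a median difference of 2.53. In B cell-primed sample 2, which was high in all 3 guide strands, the summed myeloid level was 1.70. The B cell markers miR-148a and miR-150 had a summed level of 3.79 to 5.58 in the DC-primed and 3.37 to 3.97 in the B cell-primed samples, and miR-150 is also a T cell miRNA. The part of myeloid, dendritic or B cells in the miR-29 levels was not tested.

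Summed levels of stromal and endothelial markers were -0.96 to 1.50 in DC-primed and 0.39 to 0.50 in B cell-primed samples, and those of the erythroid markers miR-451 and miR-144 were -2.08 to -0.73 and -2.74 to -2.04. Of the tested stromal and endothelial markers 2 were above 0 and 2 below, with a median difference of 0.33. The untested miR-126-3p differed by -5.00. Its Ct was 30.43, 39.81 and 38.99 in DC-primed samples 1, 2 and 3, and 28.98 to 31.86 in the B cell-primed ones. The untested miR-199a-5p had no Ct in DC-primed sample 1. Its difference of -2.11 and the summed stromal level of that sample thus rest in part on an authors' filled-in dCt. The 1 tested erythroid marker, miR-451, differed by 1.31. The tested miRNAs listed as T cell markers were miR-150, miR-181a, miR-142-5p and miR-155. All 4 were above 0, with a median of 0.83, where 146 of all 274 assays (53.3%) were above 0. Their median was 2.70, 1.37 and -1.17 in rounds 1, 2 and 3, and each of the 4 was below 0 in round 3. Whether these 4 tell T cells from the priming cells was not tested. None of the tested markers passed limma's adjusted test.

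The gap between 2 guide strands of 1 sample does not depend on how the samples were normalized, and it shows whether the members moved by the same amount. miR-29a minus miR-29c was -0.05, 1.45 and 2.23 cycles in DC-primed samples 1, 2 and 3, and 0.81, 0.47 and 0.53 in B cell-primed samples 1, 2 and 3. The B cell-primed samples were close together and lay inside the DC-primed range. The means were 1.21 ± 1.16 and 0.603 ± 0.181 cycles (SD, n = 3 each; two-sided exact permutation p = 0.4, with 0.1 the smallest that 3 against 3 allow).

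miR-29c minus miR-29b, which compares the 2 members that differ only at their 3′ ends, was 2.27, 0.13 and 0.24 cycles in DC-primed samples 1, 2 and 3, and 2.65, 2.13 and 1.38 in B cell-primed samples 1, 2 and 3. DC-primed minus B cell-primed, this gap differed by -0.38, -2.0 and -1.14 cycles in rounds 1, 2 and 3. DC-primed sample 1 lay within the B cell-primed range, and the groups differed by -1.17 cycles (exact permutation p = 0.3, adjusted over 3 pairs 0.4). miR-29a minus miR-29b, which pairs 1 locus with the product of both, was 1.58 to 2.47 cycles in DC-primed and 1.91 to 3.46 in B cell-primed samples, a difference of -0.57 (exact permutation p = 0.4). Across samples miR-29a was above miR-29c in 5 of 6, and miR-29c above miR-29b in 6 of 6. Within a group the means of neighbours in that order lay closer together than the SDs between samples, except miR-29c and miR-29b in B cell-primed cells. Those SDs leave out that 2 assays were read in the same sample. Within samples, the mean gap of miR-29a over miR-29c exceeded its own SD in both groups, narrowly so in DC-primed cells. That of miR-29c over miR-29b was 2.05 ± 0.64 cycles in B cell-primed and 0.88 ± 1.21 in DC-primed samples (SD). The order between assays also carries the efficiency of each primer.

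On the authors' scaling, the passenger strand miR-29c* did not follow its guide. Its level was -3.20, -2.20 and -2.40 in DC-primed samples 1, 2 and 3, and -3.66, -3.34 and -4.30 in B cell-primed samples 1, 2 and 3. Every DC-primed sample was above every B cell-primed sample, which held in this direction for 15 of 274 assays (5.47%). DC-primed minus B cell-primed was 0.46, 1.14 and 1.90 in rounds 1, 2 and 3, and 35 of 274 assays (12.8%) were above 0 in every round. The means were -2.60 ± 0.53 and -3.76 ± 0.49 (SD, n = 3 each), and the difference of 1.16 ± 0.66 (SE) had an interval of -0.34 to 2.67 and did not pass (limma adjusted p = 0.709). Its sign depended on the scaling, at -0.17 without normalization and -0.32 relative to the control assay cel-mir-67. In raw cycles, minus Ct of miR-29c* differed by 0.63, -0.2 and -0.93 in rounds 1, 2 and 3. These had the same signs as its guide in raw cycles, at 2.72, -5.04 and -4.87, with a smaller size. The authors' deposited table gives miR-29c* a fold of 2.24.

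The other passenger strands were not tested, since a Ct passed the limit in round 3, for miR-29a* in both groups and for miR-29b* in DC-primed cells only. For miR-29a* the Ct was 31.96, 33.74 and 36.89 from the DC-primed cells of rounds 1, 2 and 3, and 32.33, 33.35 and 37.49 from the B cell-primed cells. Both round 3 values lie above the limit of 35. For miR-29b* it was 27.59, 31.24 and 39.03 from the DC-primed and 26.42, 28.1 and 29.44 from the B cell-primed cells. Its level differed by -1.34 in round 1 and -1.80 in round 2, and in round 3 the DC-primed value was past the limit.

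Each guide stood above the passenger strand of the same name in each sample. For miR-29a and miR-29c these are the 2 arms of 1 hairpin, whereas miR-29b comes from 2 hairpins and the one read as miR-29b* is not named. For miR-29c the guide minus passenger gap was 8.76, 3.34 and 2.02 cycles in DC-primed samples 1, 2 and 3, and 6.67, 8.18 and 5.96 in B cell-primed samples 1, 2 and 3. DC-primed samples 2 and 3 had the smallest gaps and DC-primed sample 1 the largest. The means were 4.71 ± 3.57 and 6.94 ± 1.13 cycles (SD, n = 3 each; exact permutation p = 0.4). For miR-29a the gap was 11.29, 7.87 and 8.28 against 9.80, 11.54 and 12.05 cycles, with the round 3 passenger values past the limit. DC-primed minus B cell-primed, it differed by 1.49, -3.67 and -3.77 cycles in rounds 1, 2 and 3. For miR-29b the gap went the other way, at 3.79 to 7.95 cycles in DC-primed and 0.43 to 3.69 in B cell-primed samples (exact permutation p = 0.1, the smallest possible, and 0.3 adjusted over 3 gaps). In round 2 that difference was 0.10 cycles, and the DC-primed value of round 3 rests on a passenger Ct of 39.03.

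**Figure D3:**
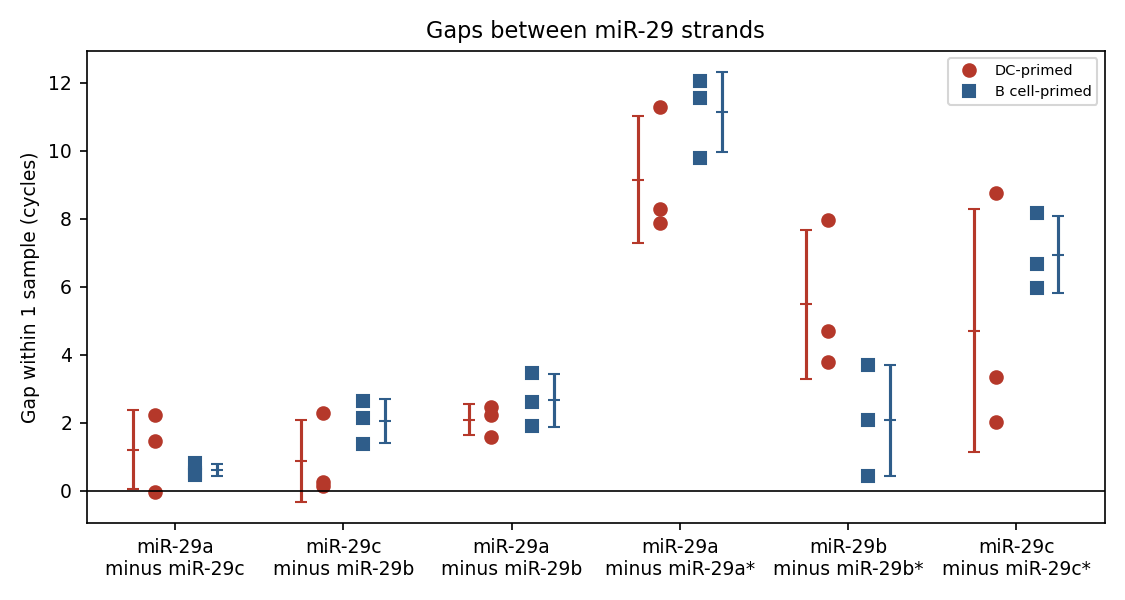
Gap between 2 miR-29 assays of the same sample (cycles, vertical axis) for 3 pairs of guide strands and 3 guide and passenger pairs; circles are DC-primed and squares B cell-primed samples, and bars give the mean and SD over 3 samples. The gap of miR-29b over miR-29b* is the only one without overlap between the groups, from 3.79 upward in DC-primed and up to 3.69 in B cell-primed samples.

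Some scalings, though not all, turned the sign of the group differences. Scaled to RNY3 and snoRD47, which are small RNAs other than miRNAs, DC-primed minus B cell-primed was 0.77 for miR-29a, 0.16 for miR-29c and 1.33 for miR-29b, and without normalization it was -1.79, -2.40 and -1.22. These scalings moved all assays: the median over the 274 was 0.07 as reported, 1.30 relative to the small RNAs, -1.26 without normalization and -1.42 relative to cel-mir-67. Each of these scalings subtracts 1 number per sample, so the distance of a miRNA from the median assay is the same under all 4 by construction. In raw cycles all 3 guide strands were again higher in round 1 and lower in rounds 2 and 3, where minus Ct of miR-29c differed by 2.72, -5.04 and -4.87, but so were 97 of 274 assays (35.4%). The course of the 3 was not shared under every scaling, a check added after the data were seen. Relative to RNY3 and snoRD47, miR-29b was at 0.78 in round 2, above 0, while miR-29a was at -0.24 and miR-29c at -1.22. Relative to cel-mir-67 all 3 changed sign in rounds 1 and 2: miR-29c was at -1.49, 0.45 and -6.61 in rounds 1, 2 and 3, miR-29a at -2.35, 1.43 and -4.91, and miR-29b at -1.11, 2.45 and -5.47. With median centring miR-29a was at 0.105 in round 3, above 0, and with quantile normalization all 3 kept the course. On the raw scale RNY3 and snoRD47 differed by -1.14, -3.82 and -2.71. The control assay cel-mir-67, named for a C. elegans miRNA and of a use the labels do not state, differed by 4.21, -5.49 and 1.74. Its part in the miR-29 values was not tested.

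**Figure D4:**
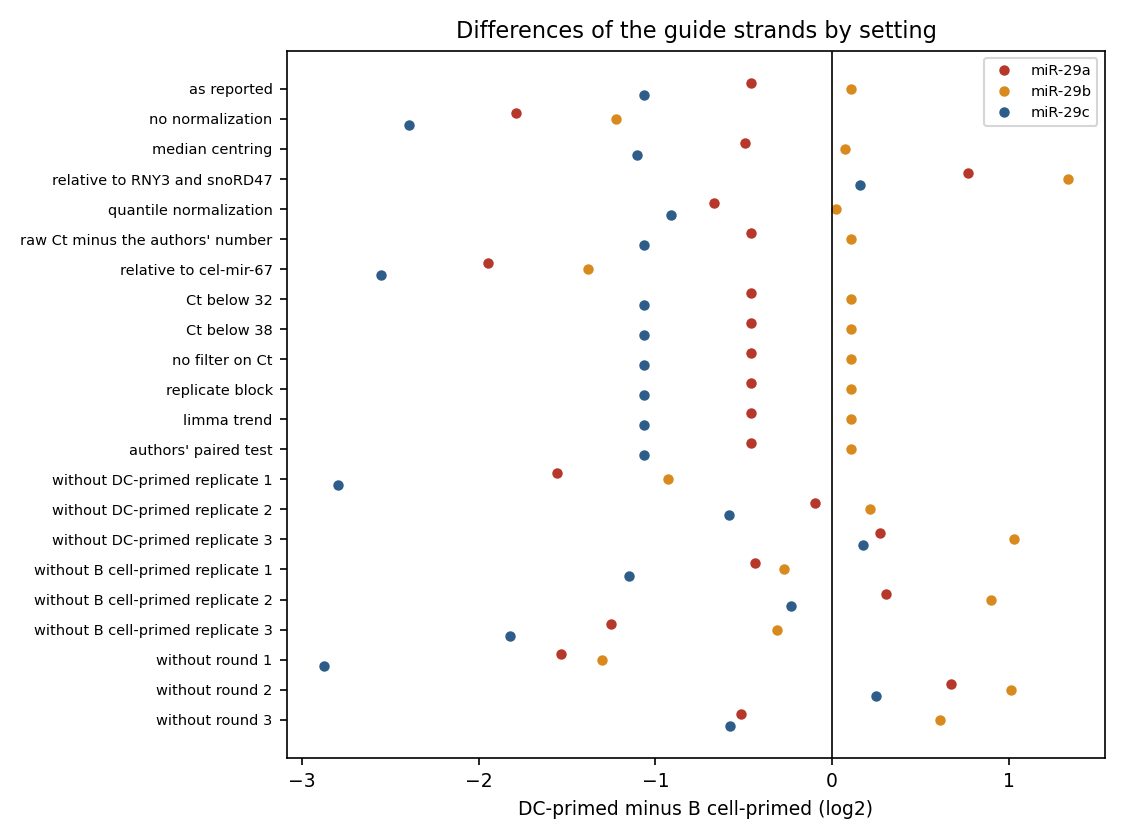
DC-primed minus B cell-primed difference (log2 scale, horizontal axis) of miR-29a, miR-29b and miR-29c as reported in the top line and under each other setting below it. miR-29c runs from -2.87 without round 1 to 0.25 without round 2, and the points of miR-29a and miR-29b also fall on both sides of 0.

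The miRNAs with levels most like those of the guide strands were found by Pearson correlation of levels over the 6 samples among the 274 tested assays. These correlations are descriptions, since all points share the authors' per-sample number and only 6 samples enter. miR-29a and miR-29c correlated with each other at 0.97, miR-29a with miR-29b at 0.91, and miR-29c with miR-29b at 0.92. On the authors' scaling, miR-29c* correlated with its guide at -0.37. For miR-29c the 5 most alike outside the family were miR-382 at 0.98, miR-15a at 0.97, miR-27a at 0.97, miR-27b at 0.96 and miR-30c at 0.92. For miR-29a they were miR-382 at 0.95, miR-27a at 0.94, miR-15a at 0.93, miR-27b at 0.90 and miR-715 at 0.89. For miR-29b they were miR-101b at 0.94, miR-15a at 0.94, miR-142-5p at 0.93, miR-27a at 0.93 and miR-378* at 0.87.

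miR-15a, which restrains the cell cycle and survival genes of lymphocytes, took the course of the guide strands on the authors' scaling, at 3.57, -2.56 and -2.15 in rounds 1, 2 and 3. miR-27a, encoded in the cluster of miR-23a and miR-24, was at 3.26, -2.13 and -1.76. miR-101b was at 4.07, -2.97 and -1.79. miR-382, from the imprinted Dlk1-Dio3 locus, had the same signs with a smaller size, at 0.27, -0.47 and -0.31. None passed limma's test, with an adjusted p of 0.986 for each of these 4. The 4 were picked by their correlation with the guide strands over the same samples, so a like course follows in part from that choice.

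Other miRNAs that T cell activation is known to lower were mixed. Of 23 listed miRNAs 21 were tested, and 16 were above 0 and 5 below 0, with 0 passing. Over all 274 assays 146 (53.3%) were above 0. The list median was 0.59, against 0.07 over all tested assays, and it was 1.12, 0.49 and -0.92 in rounds 1, 2 and 3. The largest difference was that of miR-101a at 1.96 and the smallest that of miR-191 at -1.66. Of 18 listed miRNAs that activation is known to raise, 16 were tested, 9 were above 0 and 7 below, and 0 passed. Their median was 0.47, from miR-21, raised on activation, at 3.19 down to miR-18a of the miR-17/miR-92a cluster at -3.62. The differences of all 3 guide strands, at -0.46, 0.11 and -1.07 for miR-29a, miR-29b and miR-29c, lay below the median of the list to which their family belongs, and whether they differ from it was not tested.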

How the data were processed

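Per the labels' protocols, RNA was poly(A)-tailed and reverse transcribed from oligo-dT, then amplified with a forward primer for the miRNA and a universal reverse primer. The sources used here do not give the instrument or the threshold rule. Raw Ct is in 1 table. Per the file headers, another holds the authors' dCt, on a log2 scale, made as Ct minus 1 number per sample (the geometric mean of its Ct values, although the number found from the values lay below that of all miRNA assays in every sample). The 2 tables agreed within 0.02 cycles for all miR-29 assays, none of which had a blank Ct. The authors' p-value (a paired test over rounds) and their fold, the ratio of the group levels, are deposited per the file headers.

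Assays with a Ct below 35 in all 6 samples were tested (274 of 345) with limma 3.58.1 in R 4.3.3 on minus dCt, two-sided, without a block, adjusted by Benjamini-Hochberg over all 274, at a threshold of 0.05. The fit was run on simulated data with large shifts and a spread below the median SD of either group. That check does not show how the fit behaves at the spread of these data. SE is limma's moderated one and SD is over 3 samples. Gaps were compared by exact permutation (scipy 1.17.1), and figures drawn with matplotlib 3.10.9. Whether samples came from separate animals is not stated, so p-values cover the spread among these 6 samples, which may be technical. The titles number the rounds. Across assays, deviations from the group means correlated at 0.16, 0.14 and 0.46 between the samples of rounds 1, 2 and 3. Between DC-primed sample 1 and B cell-primed sample 2, of different rounds, the value was 0.33. Rounds were taken as pairs for the differences within rounds and in alternatives only, and the main tests were unpaired.

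The members and lists were chosen with earlier results of these data known. Named miRNAs are all miR-29 assays, the 5 most correlated assays per guide strand, the extremes of each list, and the markers. An authors' filled-in dCt is carried by miR-142-3p in the T cell list and by miR-199a-5p in the stromal and endothelial list. Sequences were matched by name to RefSeq. Alternatives were 5 normalizations or source tables, 3 detection limits, the round block, a trend, the authors' paired test, and leaving out samples or rounds. Scaling to cel-mir-67 and the differences by round under each scaling were added after the data were seen.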

Additional observations from a re-analysis of the deposited data

How the results depend on the processing

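Under 21 alternatives no guide strand passed at an adjusted p under 0.05, with the lowest at 0.198 for miR-29c. The sign of miR-29c was kept in 18 of 21, that of miR-29a in 17 and that of miR-29b in 15. These counts include settings that could not change a sign, since they return the same difference. Such settings were the 3 detection limits, the round block, the trend, the authors' paired test and raw Ct minus the authors' number. Relative to RNY3 and snoRD47, miR-29a turned to 0.77 and miR-29c to 0.16. Without round 2 they turned to 0.67 and 0.25. miR-29b turned to -1.22 without normalization, -1.38 relative to cel-mir-67 and -1.30 without round 1. Leaving out 1 sample at a time gave -1.56 to 0.31 for miR-29a, -0.93 to 1.03 for miR-29b and -2.80 to 0.18 for miR-29c. The cause was not tested. The number of assays called was 0 in every setting but 1, with 2 of 274 without DC-primed sample 3 and none of them a miR-29 assay, so leaving out 1 sample gave 0 to 2. With the replicate block the differences are the same by construction, and limma's adjusted p was 0.981 for miR-29a, 0.988 for miR-29b and 0.856 for miR-29c, so the block changed no call. Leaving out 1 sample, the gap of miR-29a over miR-29c differed between groups by 0.0967 to 1.24 cycles, that of miR-29c over miR-29b by -1.87 to -0.798 and that of miR-29a over miR-29b by -0.94 to -0.165. The arm gaps gave -3.06 to -1.34 for miR-29a, 2.17 to 4.25 for miR-29b and -4.26 to -0.887 for miR-29c. Each miRNA was read by a single assay in 3 samples a group, which limits the precision.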
